A study of Mus musculus with 2 samples.

Results

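The Reg genes encode small secreted C-type lectins of the exocrine pancreas, the islets and the gut. The 7 mouse members Reg1, Reg2, Reg3a, Reg3b, Reg3d, Reg3g and Reg4 were taken as every probe set of the array whose only annotated gene symbol was one of these names. This gave 8 probe sets, with 2 for Reg3b and 1 for each of the other 6 genes, among 18193 genes measured in all. Of the 7 genes, 6 had signal above the floor defined below, and Reg4 did not. None of these 6 differed 2-fold between islets of transgenic and control mice, a step that only 3.02% of all genes above the floor passed. The furthest of the 6 was Reg3d, 1.38-fold higher on the transgenic array.

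RNA of pancreatic islets from male mice aged 6 weeks was hybridised to 1 array per genotype. The transgenic mice overexpress the microRNAs miR-141 and miR-200c (miR-141/200c_overexpression, in a line titled Ripmir), and the control is labelled Bl6_control, titled C57Bl6. From general knowledge of the study, the rat insulin promoter drives the transgene, so its direct site of action is the beta cell. The labels name islets as tissue and beta-cells as source, state that extracted islets went untreated into RNA preparation, and do not say how many mice were pooled.

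Reg1 was first found in regenerating islets and is, with Reg2, an abundant product of acinar cells, which make the digestive enzymes. Reg3b, also called pancreatitis-associated protein, and Reg3g are lectins that bind and kill bacteria in the gut, and both are induced through STAT3 by cytokines such as IL-6 and IL-22. Reg3d is related to the islet neogenesis-associated protein of the hamster, Reg3a is a further pancreatic Reg3 lectin, and Reg4 is a product of secretory cells of the gut.

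The overexpressed RNAs are shown because they define the transgenic group, and the capitals mark the seed, bases 2 to 8, that pairs with target messages. The sequences are those of RefSeq on GRCm38.p6, given as the 3p strands. Neither the Reg messages nor any other transcript was searched for matching sites.
mmu-miR-141-3p (chr6:124717917-124717938, minus strand): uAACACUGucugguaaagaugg
mmu-miR-200c-3p (chr6:124718324-124718346, minus strand): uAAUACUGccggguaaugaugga

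The 6 members other than Reg4 lie side by side on chromosome 6 in the order Reg3b, Reg3d, Reg3a, Reg2, Reg1 and Reg3g, with no other protein-coding gene between them in the GRCm38.p6 gene table. Reg4 lies on chromosome 3. For all 7 genes a window of 250 bases before the annotated start was read from the RefSeq promoter table. The windows of 5 genes are shown: the adjacent Reg1 and Reg2, Reg3b and Reg3g as the most alike pair, and Reg3d as the member with the largest difference. Capitals mark CACCTG, a form of the E-box bound by acinar factors such as Ptf1a, and TATAAA, the core of the TATA box, each on either strand.
Reg1 (chr6:78425733-78425982, plus strand): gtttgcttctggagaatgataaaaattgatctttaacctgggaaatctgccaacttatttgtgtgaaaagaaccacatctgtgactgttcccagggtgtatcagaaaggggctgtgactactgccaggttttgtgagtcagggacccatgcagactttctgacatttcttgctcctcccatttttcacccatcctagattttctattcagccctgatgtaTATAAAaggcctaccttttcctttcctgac
Reg2 (chr6:78404905-78405154, plus strand): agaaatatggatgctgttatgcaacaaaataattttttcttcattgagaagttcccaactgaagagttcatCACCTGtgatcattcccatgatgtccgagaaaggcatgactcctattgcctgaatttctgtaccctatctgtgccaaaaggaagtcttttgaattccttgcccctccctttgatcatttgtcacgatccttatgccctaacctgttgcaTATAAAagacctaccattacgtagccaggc
Reg3b (chr6:78370635-78370884, plus strand): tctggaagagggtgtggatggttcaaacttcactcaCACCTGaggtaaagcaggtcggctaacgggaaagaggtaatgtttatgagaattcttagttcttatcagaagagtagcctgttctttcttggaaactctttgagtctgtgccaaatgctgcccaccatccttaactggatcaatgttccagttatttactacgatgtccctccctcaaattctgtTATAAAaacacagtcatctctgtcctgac
Reg3g (chr6:78468875-78469124, minus strand): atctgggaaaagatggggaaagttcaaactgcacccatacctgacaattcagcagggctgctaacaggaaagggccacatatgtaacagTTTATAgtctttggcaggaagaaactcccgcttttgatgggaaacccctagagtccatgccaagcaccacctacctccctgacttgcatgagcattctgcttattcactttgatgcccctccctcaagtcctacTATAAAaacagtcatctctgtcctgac
Reg3d (chr6:78378866-78379115, minus strand): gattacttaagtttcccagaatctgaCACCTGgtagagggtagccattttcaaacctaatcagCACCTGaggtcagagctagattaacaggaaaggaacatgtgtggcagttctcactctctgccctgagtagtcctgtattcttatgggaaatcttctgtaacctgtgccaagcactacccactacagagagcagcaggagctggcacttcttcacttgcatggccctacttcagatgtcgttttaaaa

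TATAAA stood at -30 to -25 from the start in both Reg1 and Reg2, at -29 to -24 in Reg3b and at -27 to -22 in Reg3g. It was present in 4 of the 7 windows, against 12.4% of 32851 windows of the same length in the table, and Reg3g held a further match on the opposite strand. CACCTG was present in 5 of 7 windows, against 17.2% of all windows, and Reg3d held it at 2 places, -224 to -219 and -187 to -182. TGGGAA, the core of the site of Rbpj and the acinar factor Rbpjl, was present in 5 of 7 against 21.6%. TTCNNNGAA, the form bound by STAT factors, was present in 2 of 7, Reg3b and Reg3d, against 7.02%. In Reg3d that match begins with the bases of a TGGGAA match on the other strand, so these 2 overlap. Both strands were searched for each motif. A match is a description of letters and not of a bound site.

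**Figure D1:**
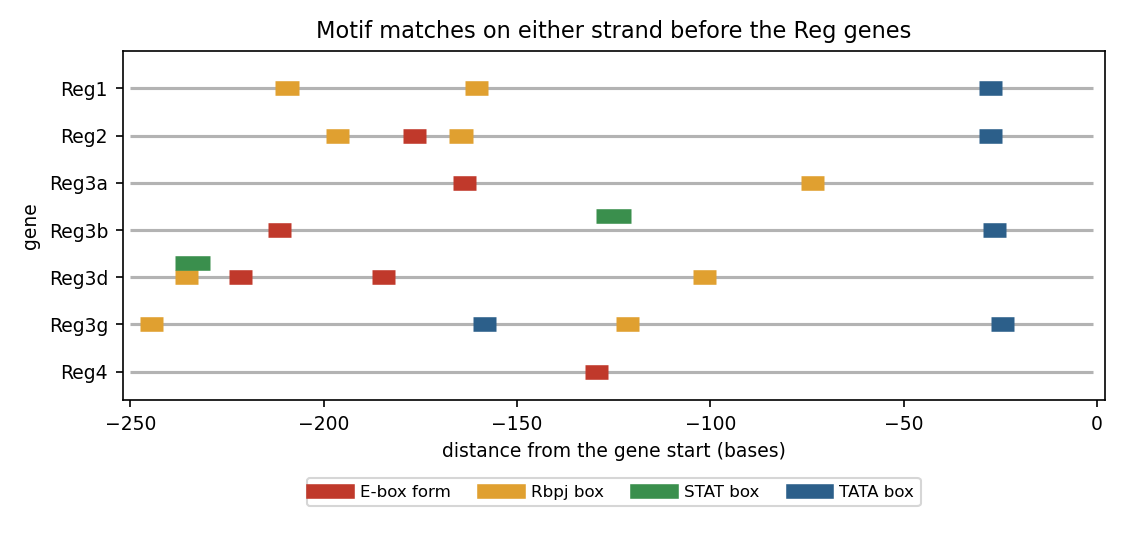
Matches to the 4 motifs on either strand, drawn at their distance in bases from the annotated start of each of the 7 Reg genes. The E-box form is CACCTG, the Rbpj box TGGGAA, the STAT box TTCNNNGAA (raised above the line) and the TATA box TATAAA. Matches to the last of these stand within the last 30 bases of Reg1, Reg2, Reg3b and Reg3g, and Reg4 shows a single CACCTG match.

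In a global alignment the windows of Reg3b and Reg3g were identical at 68.4% of aligned positions. Those of Reg1 and Reg2 followed at 56.2%, and the remaining 19 pairs ran from 43.8% to 52.4%. On the arrays, described next, the Reg3b probe sets differed by 0.10 and -0.03 between the groups and Reg3g by -0.31. Any link between the likeness of windows and these differences was not tested.

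All values are log2 RMA values, a background-corrected and normalized probe set signal on which 1 unit is a 2-fold step, and differences are given as transgenic minus control. With 1 array per group (n = 1) no value has a replicate error, no test was possible and no difference has a replicate check. Higher and lower describe these 2 arrays only. The floor, below which a signal was treated as background, was 5.76, the median of all probe set values. In tissue RNA, fewer cells of a type and less RNA per cell cannot be told apart. Probe sets differ in how strongly they respond, so the values do not rank the Reg genes by transcript number.

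The arrays held 45101 probe sets each, with medians of 5.76 on both, and the number of arrays limits the precision. The array's own controls also read higher for the transgenic sample, in 24 of 24 probe sets of the poly-A spikes (median difference 1.51) and in 18 of 18 of the hybridisation controls (0.40). The amounts of spike and sample RNA are not given, so equal RNA input was not established. No probe set is annotated to either microRNA, so their overexpression was not checked here.

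The 2 acinar and islet members had bright and nearly equal signals. Reg1 read 13.46 on the transgenic and 13.29 on the control array, a difference of 0.17 (1.13-fold). Reg2 read 12.81 and 12.70, a difference of 0.12 (1.08-fold). Both genes were thus marginally brighter on the transgenic array, and both lay above 99% of the probe sets of each array. The central 95% of the differences of the 296 kept genes with a mean of at least 12 ran from -0.41 to 0.40, which includes both. Arrays can compress differences near the top of the scale, and whether they did so here was not tested.

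Among the Reg3 lectins the differences went both ways. Reg3d read 9.58 on the transgenic and 9.11 on the control array, a difference of 0.47. Of the 12143 genes with at least 1 value at the floor, called kept here, 16.7% had a difference of that size or larger in either direction. Reg3d was thus the kept Reg gene with the largest difference, of a size that many genes reached. Reg3a read 8.84 and 8.71, a difference of 0.13. The brighter probe set of Reg3b read 11.92 and 11.82, a difference of 0.10, and the other, of the _s class, read 10.56 and 10.60, a difference of -0.03. The 2 Reg3b probe sets thus gave opposite signs, 0.14 apart. Probe sets of the same gene were a median of 0.20 apart over the 3158 genes with 2 probe sets at the floor, and a probe set of the _s class can match more than 1 transcript.

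Reg3g, the gut lectin against Gram-positive bacteria, was the 1 kept member lower on the transgenic array. It read 6.55 there and 6.86 on the control array, a difference of -0.31 (1.24-fold lower), which 31.5% of kept genes equalled or passed in size. Both readings were within 1.10 of the floor. Reg4 read 4.56 on the transgenic and 4.23 on the control array, below the floor on both, so no level and no fold is given for it.

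**Figure D2:**
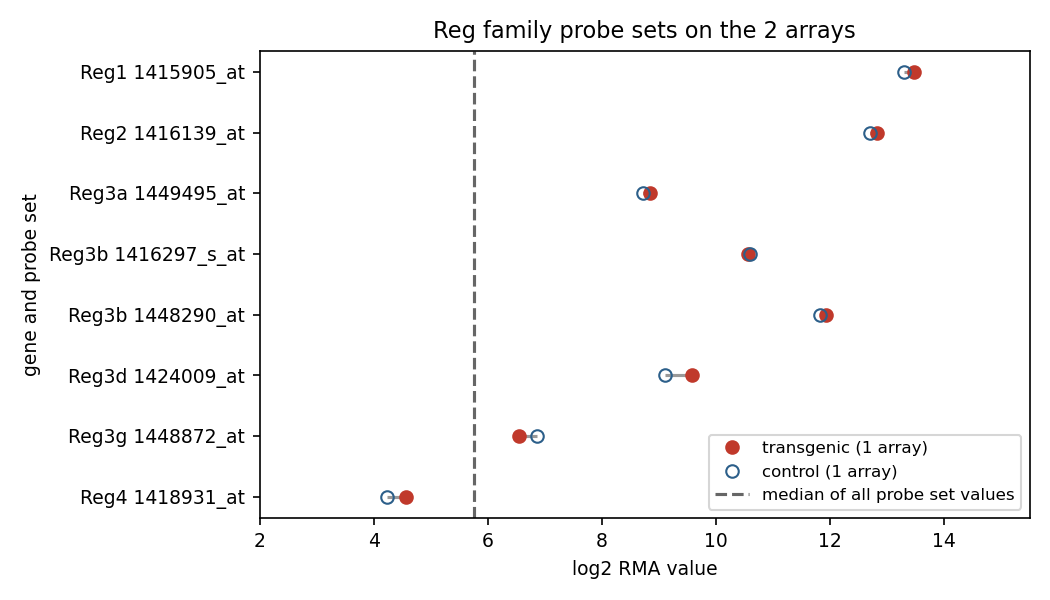
Log2 RMA value (horizontal axis) of each of the 8 Reg probe sets on the transgenic array (filled) and the control array (open), with the floor of 5.76 as a dashed line. The 2 points of a probe set lie close together, furthest apart for Reg3d (9.58 and 9.11), and Reg4 lies left of the floor on both arrays.

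Of the 7 genes 6 passed the floor, and 5 of these were higher and 1 lower on the transgenic array. Their median difference was 0.12, within a range from -0.31 to 0.47, while over all kept genes the median was 0.03 and 54.2% were higher. None of the 6 passed the 2-fold rule, which 3.02% of kept genes did (2.51% higher and 0.511% lower). None reached 1.5-fold either, a step that 10.9% of kept genes reached (7.73% higher and 3.14% lower). The central 95% of the differences of kept genes ran from -0.63 to 1.0, and the 6 Reg genes lay inside it. The other 3 scalings tried kept the sign of all 8 Reg probe sets. Centring on the median of the acinar digestive enzymes lowers every difference by the same amount, and by that construction gave -0.05 for Reg1, -0.10 for Reg2, -0.09 for Reg3a, -0.12 for the brighter Reg3b probe set, 0.25 for Reg3d and -0.53 for Reg3g.

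**Figure D3:**
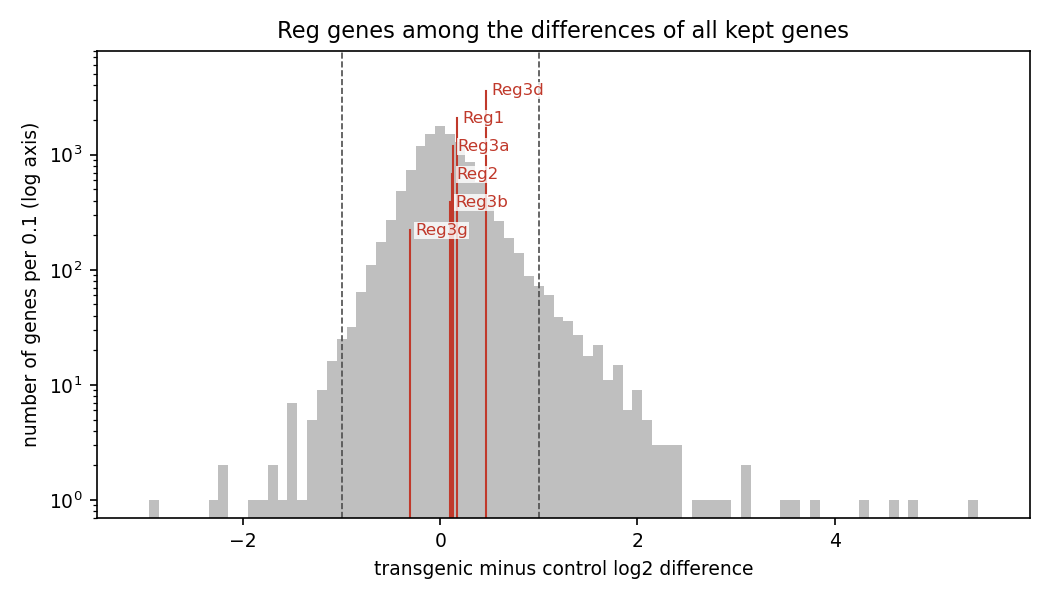
Histogram of the transgenic minus control log2 difference of 12143 kept genes in steps of 0.1, with the number of genes on a log axis and the 2-fold rule as dashed lines. Red lines place the 6 kept Reg genes along the horizontal axis, and their heights carry no value. They fall between -0.31 (Reg3g) and 0.47 (Reg3d), inside both dashed lines.

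Acinar digestive enzymes, the products of the cells that make most Reg protein in the pancreas, had bright signals on both arrays. Cpa1, a carboxypeptidase, read 14.17 on the transgenic and 14.04 on the control array, and the islet hormone genes Ins2 (14.95 and 15.02) and Gcg (14.13 and 14.19) were bright as well. Both preparations therefore held acinar as well as islet RNA, whereas the labels give beta-cells as source. Of 26 measured acinar genes, all above the floor, 24 were higher on the transgenic array, with a median difference of 0.22. The share of this acinar shift in the Reg values was not tested. Prss3, a trypsinogen with close relatives in the genome, was past 2-fold at 1.66 (10.53 and 8.87), and Ctrc, chymotrypsin C, at -2.23.

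Of 8 measured transcription factors of acinar cells, several of which other pancreatic cells also express, 5 were above the floor, 2 higher and 3 lower, with a median of -0.22 and none past 2-fold. Bhlha15 (Mist1), which sustains the secretory state of acinar cells, was furthest lower at -0.44 (9.51 and 9.95), followed by Gata6 at -0.25, where another probe set above the floor read 0.29. Rbpjl was furthest higher at 0.09 (5.84 and 5.75), and Mnx1 followed at 0.01. Ptf1a, the master factor of acinar cells, was below the floor on both arrays, at 5.70 and 5.30. The difference between these factors and the enzymes was not tested.

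The cytokine pathway that induces the Reg3 genes was described from its receptors to its targets. A list of ligands and receptors of the IL-6 and IL-22 families, which also held the receptor genes Il1r1, Il17ra, Il17rc, Tnfrsf1a, Ifngr1 and Ifngr2 of other cytokines, had 17 of 20 measured genes kept, 6 higher and 11 lower, with a median of -0.19. Il6ra, the IL-6 receptor chain, was past 2-fold at -1.09 (9.05 on the transgenic and 10.15 on the control array), and its other probe set also read lower, at -0.64. Ifngr2, a chain of the interferon gamma receptor, was past it on the other side at 1.17 (8.26 and 7.09), but its other probe set had the opposite sign, at -0.36. Il6 itself read 8.13 and 8.68, a difference of -0.55. Il6st, the shared signalling chain gp130, stood at 0.21, and 1 of its 3 other probe sets had the opposite sign. Il22ra1, the specific chain of the IL-22 receptor, was below the floor on both arrays, at 4.57 and 4.34.

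Transducers and feedback genes of the JAK-STAT pathway were all kept, 6 of 17 higher and 11 lower, with a median of -0.13 and none past 2-fold. Bcl3, a nuclear cofactor of NF-kB, was furthest lower at -0.60 and Stat3 next at -0.52 (11.31 and 11.83), with its 3 other probe sets between -0.37 and -0.11. Tyk2, a Janus kinase, stood at 0.37, with its other probe set of opposite sign at -0.43, and Socs2, a feedback inhibitor, at 0.34. Jak1, also a Janus kinase, stood at 0.04. Another of its probe sets was past 2-fold at -1.36 (5.96 and 7.31), and a further probe set read 0.39. Socs3, the inhibitor that STAT3 itself induces, read 10.01 and 10.15, a difference of -0.14. The Reg3 genes had no common sign beside these values.

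Other genes of the acute phase and of epithelial defence, many of them induced by the same cytokines, were mostly dim. Of 30 measured 18 were below the floor on both arrays, among them Lcn2 (4.57 and 4.28), Saa1 and Saa2. Of the 12 kept, 5 were higher and 7 lower, with a median of -0.06 and none past 2-fold. Tifa, an adaptor of NF-kB signalling, stood at 0.86, Hpx (haemopexin) at 0.41, Hamp (hepcidin) at -0.78, with its other probe set at -0.27, and Fgb, a fibrinogen chain, at -0.40. Hpx and Hamp crossed the floor between the arrays or lay near it, at 5.83 and 5.42 for Hpx and 5.82 and 6.60 for Hamp.

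Secreted mucosal defence proteins, to which the Reg3 lectins belong by function, had 11 of 20 measured members above the floor, 7 higher and 4 lower, with a median of 0.26 and none past 2-fold. Lypd8, which keeps bacteria from the colon epithelium, stood at 0.98 (6.74 and 5.77) and Fcgbp, a mucus protein, at 0.59. Defb1, a defensin, stood at -0.58 (10.90 and 11.49) and Tff1, a trefoil peptide, at -0.16. Extl3, proposed as a receptor of Reg proteins, read 7.87 on the transgenic and 8.06 on the control array, a difference of -0.19. Of the 4 kept exostosin genes, enzymes of heparan sulphate synthesis, 2 were higher and 2 lower with none past 2-fold (median -0.003), and Ext2 stood at 0.32.

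Genes of tissue injury and acinar stress, a setting in which Reg genes are known to be raised, had 23 of 24 measured members above the floor, 15 higher and 8 lower, with a median of 0.08. Lgals3, a galectin of macrophages and injured epithelium, was past 2-fold at 1.37 (10.03 and 8.65), and S100a10, a partner of annexin A2, at -1.01 (10.07 and 11.08). The metallothionein gene Mt1 stood at -0.77, with its other probe set past 2-fold at -1.65. Clu (clusterin), a stress chaperone raised in pancreatitis, stood at 0.18.

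**Figure D4:**
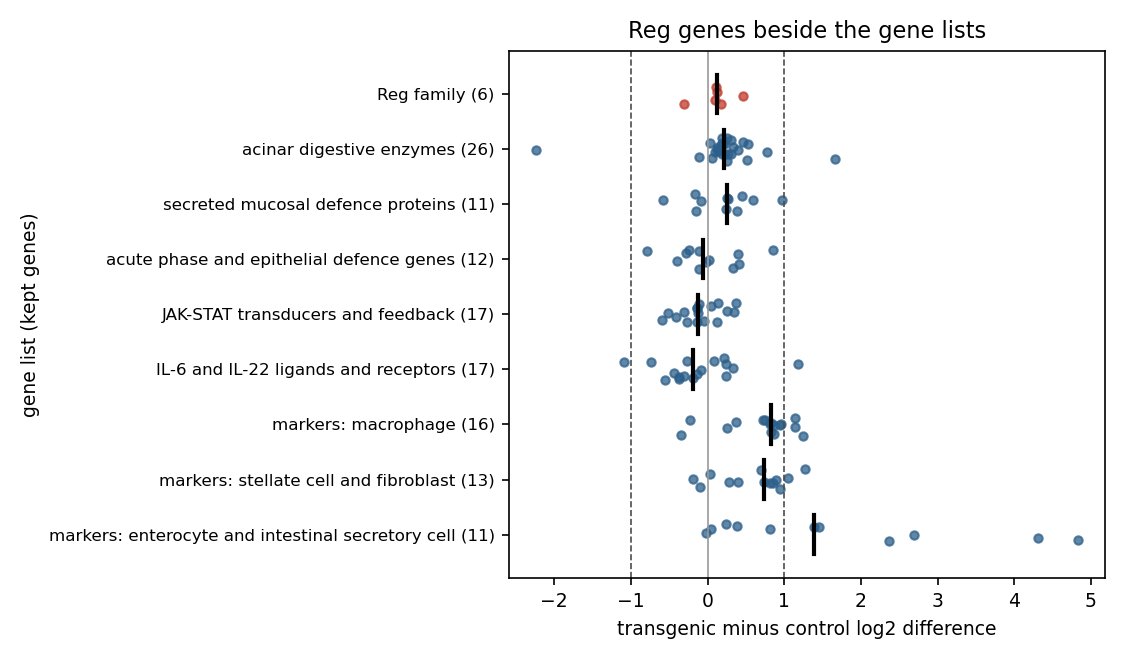
Transgenic minus control log2 difference of each kept gene (points) in the Reg family and 8 gene lists, with the median of each list as a black bar, the number of genes in brackets and the 2-fold rule as dashed lines. The Reg genes lie between -0.31 and 0.47 with a median of 0.12, beside medians of 0.22 for acinar enzymes and 1.38 for markers of intestinal cells. Several of the intestinal markers were kept through the transgenic array alone, which raises that median.

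Markers of several other cell types were higher on the transgenic array, and their part in the Reg values was not tested. Of 20 macrophage markers 16 were kept and 14 of these were higher (median 0.83), with Mpeg1, C1qb and C1qc past 2-fold, and the mean level of the list was 7.96 on the transgenic and 7.37 on the control array. Of 13 kept stellate cell and fibroblast markers 11 were higher (median 0.74; mean levels of the 15 measured 8.14 and 7.58), with Col1a2 and Postn past 2-fold. Intestinal markers bear on Reg3b, Reg3g and Reg4, which the gut makes: 10 of 11 kept were higher (median 1.38; mean levels of the 16 measured 6.82 and 5.63). The 6 of them past 2-fold were Fabp2, Fabp1, Apob, Alpi, Cdh17 and Apoa1, from 4.83 down to 1.38. The kept markers not past 2-fold were Apoa4 at 0.81, Tff3 at 0.38, Lyz1 at 0.25, Vil1 at 0.05 and Anpep at -0.02. On the control array Fabp2 (3.64), Fabp1 (3.66), Apob (3.94), Cdh17 (4.60) and Apoa4 (5.31) were below the floor. These genes were kept through the transgenic array alone, so they are higher by construction and raise the count and the median. Muc2, the defining mucin of goblet cells, Lgr5, of intestinal stem cells, and the intestinal factors Cdx1 and Cdx2 were below the floor on both arrays. Ductal markers had 8 of 10 kept genes higher (median 0.17), with Prom1 past 2-fold. Beta cell markers had 6 of 16 higher (median -0.08) and none past 2-fold. The 10 other endocrine markers (median 0.06), 11 kept endothelial markers (0.04) and 11 lymphocyte markers (-0.14) had no member past 2-fold.

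The genes whose pair of array values was nearest to that of Reg3d, by Euclidean distance over the 2 arrays, were Svil (9.56 and 9.11), Bcl2l11 (9.56 and 9.10) and Cerk (9.59 and 9.11). Nearest to Reg1, the brightest Reg probe set, were Cel (13.51 and 13.28), a digestive lipase of acinar cells, Rplp0 (13.46 and 13.35), a ribosomal protein, and Selenop (13.53 and 13.32), a selenium transport protein. This is likeness in brightness on 2 arrays and in no other sense.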

How the data were processed

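The table holds 1 log2 value per probe set and array, which the authors deposited after processing with RMA in Affymetrix Expression Console, per the submitters' processing notes. Software versions and the full set of arrays normalized jointly were not stated. The sorted columns differed by at most 0.10.

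Groups came from the genotype labels. Of 45101 probe sets 34945 had 1 gene symbol in the platform annotation, 932 had several, 9160 had none there and 64 were controls. Of those with 1 symbol, 34741 had their symbol updated or kept through the Entrez identifier. Each gene took its probe set with the highest mean, and was kept when 1 value reached the floor of 5.76. The size rule was 2-fold. Named genes were all 7 members, list members past 2-fold or, in lists with none, up to 2 furthest in each direction, and the 3 nearest genes to 2 members. Cpa1, Ins2, Gcg, Ptf1a, Il6, Il6st, Il22ra1, Socs3, Lcn2, Saa1, Saa2, Extl3, Mt1, Clu, Muc2, Lgr5, Cdx1 and Cdx2 were named for their role after their values were seen. Also named after their values were seen were Jak1, for its other probe set, and the intestinal markers Apoa4, Tff3, Lyz1, Vil1 and Anpep. Members and lists were chosen with earlier results of these data known. Counting was tested on simulated data. Alternatives were another quantile normalization, a lowess trend (span 0.3), 2 centrings, other probe set rules, floors and a 1.5-fold rule. Python 3.11.15, pandas 2.3.3, numpy 2.4.6 and statsmodels 0.14.6 were used.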

Additional observations from a re-analysis of the deposited data

How the results depend on the processing

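With 1 array per genotype no replicate could be left out, and the differences carry no error. No paired analysis was possible because each group has a single array. No kept Reg gene passed the size rule under any of the 7 alternatives tried for that count, which include no floor and a 1.5-fold rule. All 7 Reg genes were counted only with no floor, against 5 with the floor at the 75th percentile and 6 under the other alternatives. The median difference of the 8 Reg probe sets was 0.12, and 0.09 to 0.11 after a second quantile normalization, subtraction of a lowess trend or centring on the median of kept genes. Centred on the acinar digestive enzymes, which shifts all differences by -0.22, it was -0.10 by that construction. The pathway lists held 8 genes past 2-fold, 7 to 9 under 6 of the alternatives, and 16 with the 1.5-fold rule, which is the wider rule. The number of kept genes is given with each list, and of all kept genes 3.02% passed 2-fold and 10.9% reached 1.5-fold. The list counts were not tested against these shares. Over all 12143 kept genes the 2-fold rule gave 305 higher and 62 lower, and the 1.5-fold rule 939 and 381. Averaging the probe sets of each gene kept fewer genes, 10858, and gave 217 and 38 at 2-fold. Reg3g and Reg4 lie near or below the floor, where RMA compresses differences.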

Other observations

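The genes that flank the Reg cluster on chromosome 6 were read as well, and were named for their position after the values were seen. Protein-coding genes were ordered by start coordinate alone, so genes that overlap are not told apart. Ctnna2, a catenin gene of neurons next but one before Reg3b in that order, read 6.30 on the transgenic and 6.31 on the control array. Lrrtm1, listed between Ctnna2 and Reg3b, and Lrrtm4, beyond Reg3g, were below the floor on both arrays. Gm20594, listed between Reg3g and Lrrtm4, was not measured. Gcfc2, the gene after Lrrtm4, read 7.08 and 6.97, a difference of 0.12.

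Of 33 measured C-type lectins outside the Reg family 7 reached the floor, against 6 of the 7 Reg genes. Of all 18193 genes measured, 12143 reached it, and these counts were not tested against each other. Of the 7 kept lectins outside the family, 3 were higher and 4 lower on the transgenic array (median -0.01). Clec7a, the beta-glucan receptor Dectin-1 of macrophages, was past 2-fold at 1.45, from a control value of 7.55, and Sftpd, a collectin, at 1.25 (7.10 and 5.85). In the same sample the macrophage markers had a median of 0.83, and their part in the value of Clec7a was not tested.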
